A study of Rattus norvegicus with 6 samples.

Results

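Ucn3, Npy, Gjd2 and Trpm5 are genes used to place a beta cell on its path from an immature, insulin-positive cell to one that releases insulin in response to glucose. They were taken by symbol from the count tables of fetal rat islets, and all 4 were present among the 17321 genes counted. Of the 4, Ucn3, Gjd2 and Trpm5 had enough reads to be tested, and Npy did not pass the filter on low counts. The islets came from Sprague Dawley rat fetuses at gestational day 22. There were 3 libraries labelled high glucose, from the uterine horn that was infused with glucose at 4 mg/min for 48 h from day 20, and 3 labelled control, from the opposite, uninfused horn of the same dams. All 6 libraries shared the later handling: islets of 2 pooled pancreata were picked by hand after collagenase and recovered for 24 h in 5 mM glucose before lysis, so RNA was not taken at the end of the infusion. The infused horn was by design the left in each dam, so effects of side, of the infusion procedure and of glucose cannot be told apart.

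Beta cells mature around and after birth. In rodents urocortin 3, the peptide made from Ucn3, appears late in this process; it is released with insulin and acts on the CRHR2 receptor of delta cells, which answer with somatostatin. Gjd2 encodes connexin 36, which forms the gap junctions that couple neighbouring beta cells, and Trpm5 encodes a calcium-activated cation channel that depolarizes beta cells and also serves taste and tuft cells. Neuropeptide Y, the product of Npy, is by contrast made by immature beta cells and is lost as they mature, and it is also a transmitter of sympathetic neurons.

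Total counts ranged from 18077841 to 30993532 per library, and 13026 to 13976 genes had at least 1 count. File names and sample titles disagreed on the horn (left or right) in all 6 libraries. Groups follow the treatment labels, and the sign of each difference would turn if the file names were right. Nothing in the labels says that replicate libraries were prepared separately beyond coming from different dams. The 8 beta cell genes used as a reference for beta cell content (Ins1, Ins2, Iapp, Pdx1, Nkx6-1, Slc2a2, Slc30a8 and Mnx1) were counted in every library. Their summed level was 18496, 10753 and 4919 CPM (read counts scaled to the TMM-adjusted library size) in the high glucose libraries of dam pairs 1, 2 and 3, against 11136, 13483 and 22753 CPM in the control libraries. Ins1 and Ins2 made up nearly all of each sum. Iapp, Slc2a2 and Slc30a8 are also on the list of mature beta cell genes used below, so the reference is not one of beta cell content alone. Collagen and other mesenchyme markers summed to 20179 to 29330 CPM in high glucose and to 14617 to 34426 CPM in control libraries, so the preparations were not pure endocrine tissue. Col1a2, among these markers, is annotated at 2 places, as described below for Npy, and had 1 to 12 counts per library. It thus added almost nothing to the sums.

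Ucn3 lies on rn6 chromosome 17 from 69960160 to 69966111 on the plus strand, with 2 exons and 523 counted bases. It had 2101, 634 and 194 counts in the high glucose libraries of pairs 1 to 3, against 628, 474 and 978 in the control libraries. On the scaled library sizes this was 66.1, 31.0 and 6.04 CPM in high glucose and 18.2, 29.3 and 33.4 CPM in control. The highest and the lowest value of the gene were both in high glucose libraries, and the control values lay between them.

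Gjd2 lies on chromosome 3 from 105467480 to 105470475 on the minus strand, with 2 exons and 1892 counted bases. It had 694, 122 and 97 counts in high glucose, against 543, 109 and 566 in control libraries. These were 21.8, 5.96 and 3.02 CPM in high glucose and 15.7, 6.74 and 19.3 CPM in control. Both libraries of pair 2 were low for this gap junction gene, and in pair 3 the high glucose library was the lowest of all 6 while its control was the second highest.

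Trpm5 lies on chromosome 1 from 216257820 to 216274930 on the minus strand, with 24 exons and 3471 counted bases. It had 191, 15 and 80 counts in high glucose, against 100, 13 and 336 in control libraries. These were 6.0, 0.732 and 2.49 CPM in high glucose and 2.90, 0.804 and 11.5 CPM in control. The channel gene was near its detection limit in both libraries of pair 2, where the exact 95% Poisson intervals of the counts were 8.40 to 24.7 in high glucose and 6.92 to 22.2 in control. The intervals cover counting error only, here and below.

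**Figure D1:**
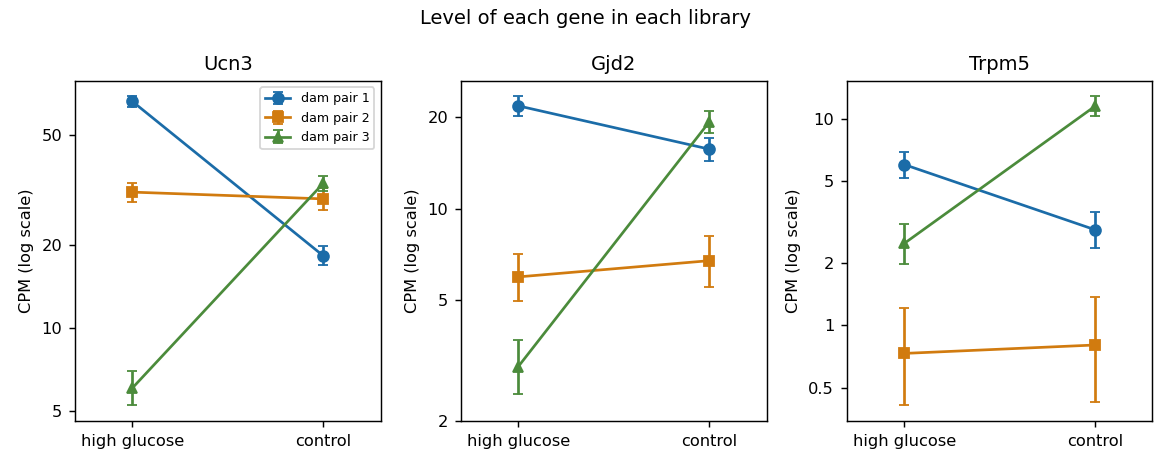
Level of Ucn3, Gjd2 and Trpm5 in CPM (log axis) in the high glucose and the control library of each dam pair; bars are exact 95% Poisson intervals of the counts. The lines cross for all 3 genes: pair 1 is higher in high glucose (Ucn3 66.1 against 18.2 CPM), pair 3 is lower (6.04 against 33.4 CPM), and pair 2 is nearly level.

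The promoters of these 3 genes are shown because the differences of these genes ran in the same order over the pairs. That order is given below, as a description only. The windows let the promoter sequences be read beside the values. All 4 members matched the RefSeq promoter table of the GRCr8 build, which covers 250 bases before to 50 after the annotated start. The sequences run from 5′ to 3′ on the gene's strand, and capitals mark matches on either strand to 4 short motifs: TAAT, the core bound by homeodomain factors such as PDX1; CANNTG, the E-box bound by NEUROD1; TGCTGA, part of the MAF recognition element; and GGACAGC, part of the element bound by the repressor REST.
Ucn3, chr17:71219406-71219705, plus strand: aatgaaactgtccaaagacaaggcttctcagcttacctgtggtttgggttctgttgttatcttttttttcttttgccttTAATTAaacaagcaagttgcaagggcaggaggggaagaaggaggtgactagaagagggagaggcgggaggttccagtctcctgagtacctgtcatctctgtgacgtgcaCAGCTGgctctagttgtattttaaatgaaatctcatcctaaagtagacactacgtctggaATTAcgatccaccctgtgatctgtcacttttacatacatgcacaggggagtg
Gjd2, chr3:121229318-121229617, minus strand: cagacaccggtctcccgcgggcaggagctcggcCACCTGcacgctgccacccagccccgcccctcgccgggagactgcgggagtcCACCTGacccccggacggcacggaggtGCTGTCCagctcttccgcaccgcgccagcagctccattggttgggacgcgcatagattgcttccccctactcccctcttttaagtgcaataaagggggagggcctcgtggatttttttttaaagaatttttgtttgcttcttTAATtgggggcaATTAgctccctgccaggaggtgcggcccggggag
Trpm5, chr1:207707039-207707338, minus strand: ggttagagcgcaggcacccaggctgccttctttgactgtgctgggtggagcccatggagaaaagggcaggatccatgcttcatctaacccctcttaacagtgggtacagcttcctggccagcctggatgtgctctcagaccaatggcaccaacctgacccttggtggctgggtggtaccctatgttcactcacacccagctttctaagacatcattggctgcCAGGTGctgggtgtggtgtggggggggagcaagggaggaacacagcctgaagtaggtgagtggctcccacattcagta

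TAAT matched 3 times in the Ucn3 window (2 matches overlap in the run in capitals upstream), 2 times in that of Gjd2 and 0 times in that of Trpm5, and 60.6% of the 33469 promoters of that length hold it. The E-box matched 1, 2 and 1 times in Ucn3, Gjd2 and Trpm5, and 72.1% of promoters hold one. The REST element part matched once, at position -138 of Gjd2 (counted from the start to its first base), and 6.6% of promoters hold it. The MAF element part matched in none of the 3 windows (18.4% of promoters). The Gjd2 window was the richest in G and C (62.0%), against 57.0% in Trpm5 and 44.7% in Ucn3. A match is a run of letters, not a site shown to be bound.

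Npy could not be measured from these counts. The annotation lists its 4 exons at 2 places on chromosome 4 of rn6, from 79557856 to 79565057 and again from 79574010 to 79581210, 16154 bases further on, with the same chain of exon lengths (565 bases) at both. Only read pairs whose mapping quality reached 10 were counted, and the aligner named gives a lower quality to pairs that fit 2 places equally well. Npy had 4, 0 and 1 counts in the high glucose libraries of pairs 1 to 3, against 3, 0 and 2 in the control libraries, a sum of 5 in each group. In the RefSeq table of the later GRCr8 assembly Npy is listed once.

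The other genes annotated in this way were also nearly without counts. Of 281 genes with the same exon chain at 2 places, 88.3% had at most 10 counts in every library and 146 had 0 in all 6, against 24.4% at most 10 among the other 17040 genes. Rps9, a ribosomal protein gene that every cell uses, is among the 281 and was listed at 0 in all 6 libraries, whereas ribosomal protein genes annotated at a single place had a median of 13538 counts in their lowest library. The Npy counts therefore bear neither on its level in fetal islets nor on a difference between the groups. None of the exons of the 4 members overlapped an exon of another counted gene, and none of Ucn3, Gjd2 and Trpm5 was annotated at 2 places.

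**Figure D2:**
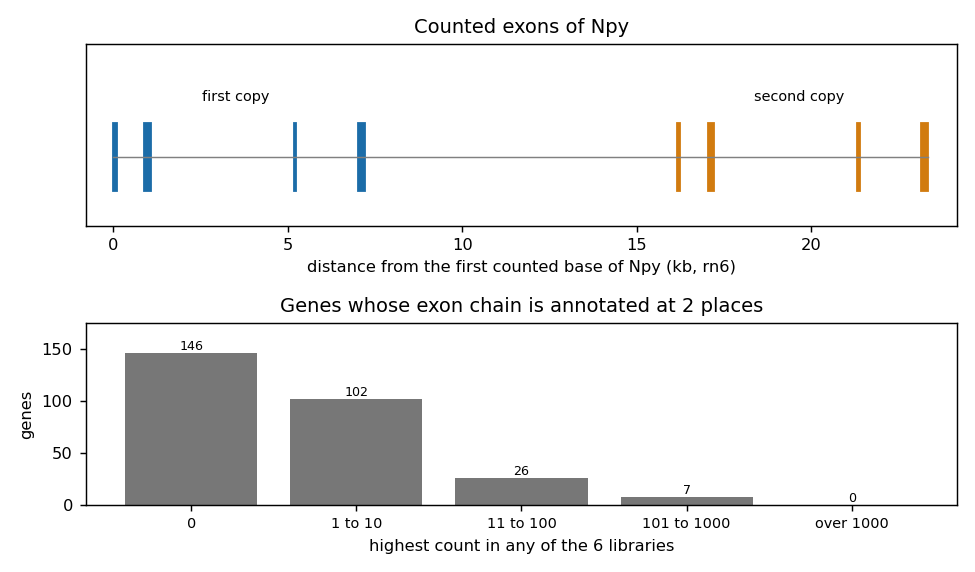
Upper panel, the counted exons of Npy by distance from its first counted base (kb), with the copies in 2 colours; the second copy starts 16154 bases after the first. Lower panel, the 281 genes whose exon chain is annotated at 2 places, by their highest count in any library: 146 were at 0, 102 at 1 to 10, 26 at 11 to 100 and 7 above that.

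Compared per length among the 3 measurable members, Ucn3 was the most abundant, Gjd2 came next and Trpm5 was the lowest, in 6 of 6 libraries; Npy has no place in this order. The level of Ucn3 was 11.55 to 126.3 CPM per kb of counted length, that of Gjd2 1.60 to 11.53 and that of Trpm5 0.211 to 3.30. Within a library Ucn3 was 4.18 to 18.8 times as high as Gjd2, and Gjd2 2.22 to 15.4 times as high as Trpm5. Over all libraries the ranges of Ucn3 and Gjd2 barely separate and those of Gjd2 and Trpm5 overlap, so the order rests on the comparison within libraries. By its mean per kb, Ucn3 lay above 85.5% of the 12276 tested genes, Gjd2 above 35.0% and Trpm5 above 12.8%. Its standing moved with the library, since Ucn3 ranked 698 of those genes in the high glucose library of pair 1 and 6305 in that of pair 3. In bulk islets fewer beta cells and less RNA per beta cell cannot be told apart.

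The comparison the design asks for is high glucose against control within each dam. None of the 3 tested members passed (edgeR quasi-likelihood test with dam as a block, Benjamini-Hochberg adjusted p = 1 for each), and none passed with DESeq2 or limma voom or had an unadjusted edgeR p below 0.05. Over all 12276 genes 2 passed, both lower in high glucose (0.0163% of genes; 0.0163% lower and 0% higher), and 4.82% had an unadjusted p below 0.05. The groups overlapped in CPM for each of the 3 genes, where 3.31% of all tested genes had groups that did not overlap.

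Ucn3 averaged 34.3 ± 30.1 CPM in high glucose and 27.0 ± 7.85 CPM in control (SD, n = 3 each). Its fitted log2 difference was -0.12 (SE 1.23, 95% interval -4.38 to 4.15), of the opposite sign to the difference of the means. The level in high glucose was 3.63 times that in control in pair 1 (95% counting interval 3.32 to 3.97). It was 1.06 times that in control in pair 2 (0.936 to 1.19), and only 0.181 times in pair 3 (0.154 to 0.211). The differences in pairs 1 and 3 were thus far beyond counting error and opposite in direction, and that in pair 2 was within it.

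Gjd2 averaged 10.3 ± 10.1 CPM in high glucose and 13.9 ± 6.47 CPM in control, with a fitted log2 difference of -0.73 (SE 0.723, 95% interval -2.67 to 1.21). Its ratio of high glucose to control was 1.39 in pair 1 (95% counting interval 1.24 to 1.55). In pair 2 the ratio was 0.884 (0.677 to 1.15), and in pair 3 it was 0.156 (0.125 to 0.194). Trpm5 averaged 3.08 ± 2.68 CPM in high glucose and 5.05 ± 5.65 CPM in control, with a fitted log2 difference of -0.44 (SE 0.668, 95% interval -1.99 to 1.11). Its ratio was 2.07 in pair 1 (1.62 to 2.67), while pair 2 gave 0.911 (0.404 to 2.08) and pair 3 gave 0.217 (0.168 to 0.278). For both genes pair 1 was higher in high glucose, pair 3 lower, and pair 2 within counting error.

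None of the 3 genes kept a single sign in all 3 pairs, where 23.0% of all tested genes did. Ucn3 and Trpm5 differed by more than 1 on the log2 scale upward in pair 1 and downward in pair 3, a swing that 2.76% of tested genes showed between some 2 pairs (a rule chosen after the values were seen). The median log2 difference over all tested genes was within 0.02 of 0 in each pair. Single pairs set the sign of the fit: without pair 3 the fitted log2 difference was 0.98 for Ucn3, 0.16 for Gjd2 and 0.55 for Trpm5, and without pair 1 it was -1.18, -1.45 and -1.39, with no adjusted p below 0.646 in edgeR. The intervals given above leave room for large changes in either direction, and a p that misses the threshold does not show that the groups were alike.

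**Figure D3:**
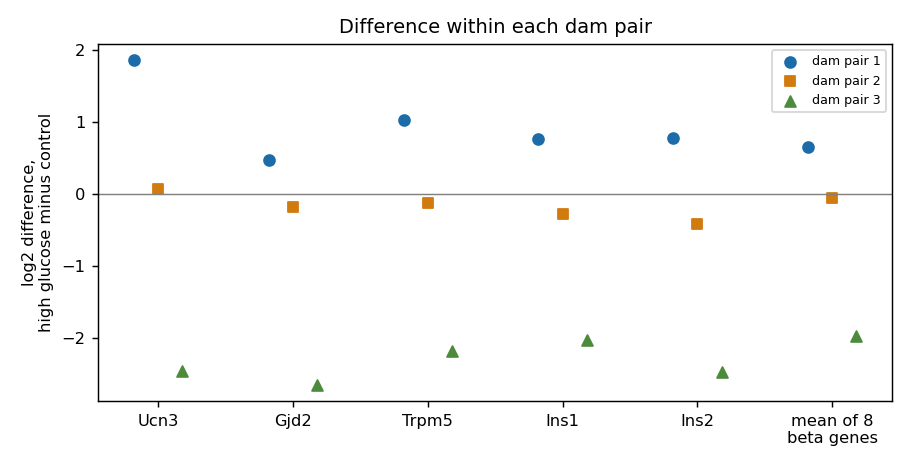
Log2 difference in CPM, high glucose minus control, in each dam pair (colour and symbol) for Ucn3, Gjd2, Trpm5, the insulin genes and the mean of 8 beta cell genes. All 6 fall in the same order, with pair 1 above 0, pair 2 between and pair 3 well below 0. The beta gene mean differed by 0.65, -0.06 and -1.97 in pairs 1, 2 and 3.

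The differences of the 3 tested members ran in the same order over the pairs, pair 1 highest and pair 3 lowest, as those of 7 of the 8 beta cell genes and of their mean. Iapp was the exception, with log2 differences of -0.45, 0.26 and -2.33 in pairs 1, 2 and 3. Ins1 and Ins2, the rat insulin genes, showed that order too. The share of all tested genes with that order was not counted, so it is a description only. The ratio of high glucose to control for Ins1 was 1.70 in pair 1, 0.825 in pair 2 and 0.246 in pair 3, and for Ins2 it was 1.71, 0.753 and 0.182. The mean log2 CPM of the 8 beta cell genes differed by 0.65, -0.06 and -1.97 in the 3 pairs. In pair 3, markers of other cells also differed. The 6 acinar markers summed to 290 CPM in the high glucose library and 14.5 CPM in its control, the 4 duct markers to 399 and 284 CPM, and the 5 alpha cell markers to 1097 and 4468 CPM. Over the groups the acinar sum ranged from 71.2 to 562 CPM in high glucose and from 14.5 to 414 CPM in control, the duct sum from 194 to 399 and from 184 to 284 CPM, and the alpha cell sum from 1097 to 4219 and from 1854 to 4468 CPM. The median log2 differences of the 3 delta cell markers (0.17, -0.25 and -1.13 in pairs 1 to 3) had the order of the members. So had those of the 2 PP and epsilon cell markers (0.29, -0.05 and -1). Those of the 5 alpha cell markers did not (0.18, 0.23 and -0.77). Blood and vessel markers did not follow the pattern of the members over the pairs. The 4 red cell markers summed to 144, 596 and 83.5 CPM in the high glucose libraries of pairs 1 to 3, against 1502, 1408 and 382 CPM in control. The 5 leukocyte markers summed to 368, 261 and 169 CPM in high glucose and to 492, 348 and 393 CPM in control, so both sums were lower in high glucose in 3 of 3 pairs. The 5 endothelial markers summed to 572, 216 and 504 CPM in high glucose and to 558, 579 and 647 CPM in control, lower in pairs 2 and 3. The part of cell composition in the differences of the members was not tested.

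Set against the mean of the beta cell genes, the pair differences were smaller in all cases but Ucn3 in pair 2. Relative to those genes, Ucn3 differed by 1.20, 0.13 and -0.48 on the log2 scale in pairs 1, 2 and 3, a mean of 0.28 ± 0.85 (SD of 3 pairs, two-sided exact sign-flip permutation p = 0.75). Gjd2 differed by -0.18, -0.12 and -0.68, a mean of -0.33 ± 0.31 (exact permutation p = 0.25, the smallest that 3 pairs allow, so no value could pass). Trpm5 differed by 0.38, -0.07 and -0.20, a mean of 0.04 ± 0.30 (exact permutation p = 1). Gjd2 was the member that was lower than the beta cell genes in 3 of 3 pairs, and with Ins1 plus Ins2 in place of the 8 genes its mean was -0.19 (exact permutation p = 0.5). Without pair 1 the mean for Ucn3 turned to -0.17 and that for Trpm5 to -0.13.

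Beside the treatment, the dam pairs differed. Relative to the 8 beta cell genes, Trpm5 stood at -5.35, -6.81 and -4.57 on the log2 scale in the high glucose libraries of pairs 1, 2 and 3, and at -5.73, -6.74 and -4.37 in the control libraries. The libraries of a dam lay within 0.38 of each other, while the means of the dams spanned 2.30. Gjd2 stood at -3.50, -3.91 and -4.30 in high glucose and at -3.31, -3.79 and -3.62 in control, with dam means spanning 0.56 and differences within dams of up to 0.68. Ucn3 stood at -1.90, -1.54 and -3.32 in high glucose and at -3.10, -1.68 and -2.84 in control, with dam means spanning 1.47 and differences within dams of up to 1.20. So the Trpm5 level per beta cell gene differed more between dam pairs than within them, though its pair 2 values rest on 15 and 13 counts. The dam and anything else shared by the libraries of a pair cannot be told apart. The level of Gjd2 varied least over the 6 libraries, and the high glucose library of pair 1 held more Ucn3 for its beta cell genes than its control did.

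**Figure D4:**
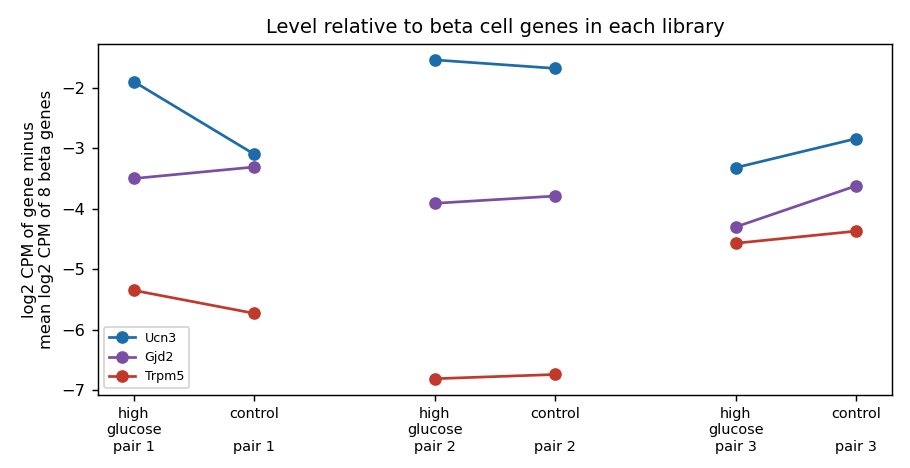
Log2 CPM of each member minus the mean log2 CPM of 8 beta cell genes, by dam pair, with high glucose left of control. Trpm5 changes more between dams (means -5.54, -6.78 and -4.47) than within them, and the steepest line is Ucn3 in pair 1, -1.90 in high glucose against -3.10 in control.

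As a description over the 6 libraries, which come from 3 dams and share that source, the log2 CPM of Gjd2 correlated with the beta gene mean at r = 0.984, that of Trpm5 at r = 0.757 and that of Ucn3 at r = 0.736. Among the members, r was 0.736 for Ucn3 with Gjd2, 0.671 for Gjd2 with Trpm5 and 0.193 for Ucn3 with Trpm5. The tested genes with a mean count of at least 20 whose levels were most like those of Ucn3 were Igf1 (r = 0.986), Tspan7 (0.967), Chga (0.966), Tram1 (0.964) and Tmem130 (0.961). For Gjd2 they were Elovl4 (0.997), Gpnmb (0.995), Hk3 (0.991), Atp2a3 (0.990) and Abat (0.988), and for Trpm5 Lamc3 (0.992), Nipsnap2 (0.985), Plpp6 (0.983), Zfp189 (0.980) and Cav2 (0.979). All were picked as the highest among 11772 genes over 6 libraries, so their r is high by selection.

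The signalling partners of the members were read from lists. Of 69 genes tested in 6 lists of related genes, 0 passed (edgeR, smallest adjusted p = 0.868), and 0 passed with DESeq2 or limma voom. An unadjusted edgeR p below 0.05 was found for 3 of the 69 (Sst, Gja1 and Trpm7). This share was no larger than the 4.82% of all 12276 tested genes with such a p. Log2 differences in the 69 had a median of -0.10, against 0.00 over all 12276 genes. By pair, the medians of the 69 were 0.22, 0.10 and -0.46 in pairs 1 to 3.

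On the urocortin side, 7 of 11 listed genes were tested, 3 above and 4 below 0, with a median of -0.54. Sst, the somatostatin that delta cells release, measured 389, 191 and 146 CPM in high glucose, against 346, 443 and 322 CPM in control (log2 difference -0.73, SE 0.29, edgeR adjusted p = 0.952). Sstr3, a somatostatin receptor, had 17.8, 7.81 and 3.11 CPM in high glucose and 13.2, 8.23 and 13.2 CPM in control. Ucn2, a urocortin related to Ucn3, had 2.86, 2.83 and 3.11 CPM in high glucose and 1.85, 1.67 and 1.91 CPM in control, higher in 3 of 3 pairs (log2 difference 0.70, SE 0.42, edgeR adjusted p = 1). It was the 1 gene of the 7 with a single sign in all 3 pairs, where 23.0% of all tested genes had that. Crhr2, the receptor of urocortin 3, had 0 to 9 counts per library and was not tested. Crhbp, the gene of the corticotropin-releasing hormone binding protein, was at 0 in all 6. Without pair 3 the median of the list was 0.19.

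The NPY family showed measurable relatives. Pyy (peptide YY), which shares receptors with neuropeptide Y, was abundant, with 1387, 1672 and 672.5 CPM in high glucose against 1210, 2004 and 1239 CPM in control (log2 difference -0.32, SE 0.253, edgeR adjusted p = 1). Ppy, the pancreatic polypeptide gene, had 75.9, 47.5 and 35.2 CPM in high glucose and 61.5, 58.8 and 73.4 CPM in control. The Y1 receptor gene Npy1r had 33.6, 14.2 and 20.7 CPM in high glucose and 25.3, 13.6 and 28.4 CPM in control. The 5 genes tested of 7 had a median of -0.32, with 1 above and 4 below 0, and of -0.57 without pair 1 and -0.01 without pair 3. Both Pyy and Ppy were higher in high glucose in pair 1 and lower in pairs 2 and 3.

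Among gap junction genes, connexin 36 was a minor transcript. Gja1 (connexin 43) had 405, 350 and 546 CPM in high glucose and 214, 266 and 440 CPM in control, higher in 3 of 3 pairs without passing (log2 difference 0.54, SE 0.203, edgeR adjusted p = 0.868). Gja4, a connexin of vessels, had 70.2, 65.8 and 48.1 CPM in high glucose and 44.3, 156 and 144 CPM in control. Gjc1 (connexin 45) had 49.9, 44.8 and 45.7 CPM in high glucose and 49.5, 41.3 and 41.4 CPM in control. Per kb the mean levels were 118, 55.4 and 28.5 CPM for these 3 genes, against 6.39 for Gjd2. Of 13 connexin and pannexin genes tested out of 19 listed, 7 were above and 6 below 0, with a median of 0.09 that changed sign when pair 1 or pair 3 was left out (-0.06 and -0.05). A single sign in all 3 pairs was kept by 2 of the 13, where 23.0% of all tested genes kept it.

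Of the TRPM channels and the taste-type signalling genes that act upstream of TRPM5, 9 of 15 were tested, 3 above and 6 below 0, with a median of -0.21 (-0.02 without pair 2). Trpm4, the closest relative of Trpm5, had 22.2, 25.2 and 41.1 CPM in high glucose and 32.0, 24.5 and 34.6 CPM in control. Trpm7, a channel with a kinase domain found in most cells, had 122, 33.7 and 93.7 CPM in high glucose and 107, 21.6 and 62.2 CPM in control, higher in 3 of 3 pairs without passing (log2 difference 0.47, SE 0.185, edgeR adjusted p = 0.908). In this list 3 of 9 tested genes kept a single sign in all 3 pairs, where 23.0% of all tested genes did. The G protein subunit gene Gng13 had 3.55, 5.81 and 4.27 CPM in high glucose and 0.782, 13.3 and 3.21 CPM in control.

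Tuft cells also use Trpm5. All 7 tuft cell markers in the files had counts in each library, and their sum ranged from 116 to 174 CPM in high glucose and from 105 to 141 CPM in control, nearly all of it from Dclk1, which neurons and other cells also express. The defining factor gene Pou2f3 had 17, 5 and 4 counts in high glucose and 12, 6 and 1 in control. Gnat3, the taste G protein gene, had 84, 10 and 30 counts in high glucose and 85, 3 and 103 in control. The part of tuft cells in the Trpm5 counts was not tested. Neuronal markers, listed because neurons make neuropeptide Y and connexin 36, summed to 32.1 to 110 CPM in high glucose and 34.5 to 93.8 CPM in control, and all 7 in the files had counts in each library.

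Other genes of mature beta cells had, by their medians, positive differences in pair 1 and negative ones in pair 3. Of 19 listed, 17 were tested, 5 above and 12 below 0, with a median of -0.15 and medians of 0.58, 0.26 and -1.47 in pairs 1 to 3. The list shares Iapp, Slc2a2 and Slc30a8 with the beta cell reference. Iapp, which encodes amylin, had 406, 184 and 136 CPM in high glucose and 554, 155 and 683 CPM in control. Ppp1r1a, an inhibitor of protein phosphatase 1, had 143, 88.4 and 26.0 CPM in high glucose and 58.9, 131 and 110 CPM in control. Slc2a2, the glucose transporter GLUT2, had 173, 30.1 and 23.2 CPM in high glucose and 79.5, 15.8 and 141 CPM in control. The median of this list was -0.69 without pair 1, -0.35 without pair 2 and 0.40 without pair 3.

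The 18 genes that mark immature beta cells or are normally kept low in adult ones had medians of 0.07, 0.20 and -0.02 in pairs 1 to 3 and a fitted median of 0.05 (10 above and 8 below 0), which ranged from 0.01 to 0.08 with a single pair left out. Igfbp4 had 1639, 2724 and 1620 CPM in high glucose and 1060, 2448 and 1675 CPM in control. Dlk1 had 1420, 1823 and 536.3 CPM in high glucose and 1025, 1866 and 1086 CPM in control, and Ldha (lactate dehydrogenase A) 403, 718 and 879 CPM in high glucose and 501, 534 and 1001 CPM in control. Many of these genes are also expressed by mesenchyme or other non-endocrine cells, so their levels here are not those of beta cells alone. Whether the mature and the immature lists differed from each other was not tested.

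**Figure D5:**
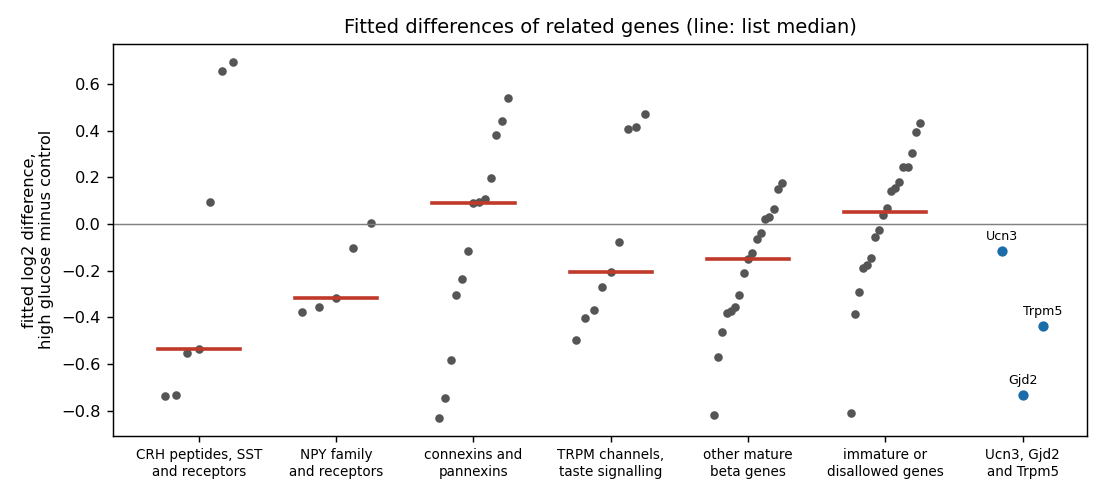
Fitted log2 difference, high glucose minus control, of each tested gene in 6 lists of related genes (points; red line, list median) and of Ucn3, Gjd2 and Trpm5. The medians run from -0.54 (urocortin and somatostatin system) to 0.09 (connexins), and no gene shown passed the test.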

How the data were processed

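RNA sequencing counts of 6 fetal rat islet libraries were used. Per the file headers, the authors used featureCounts 1.5.1 to obtain unnormalized counts for each gene (paired reads, strand setting 2, mapping quality of at least 10, UCSC refGene annotation of rn6). Per the submitters' processing notes, reads were aligned with STAR 2.5 and edgeR 3.12.1 was also named. Counting by strand keeps antisense genes apart, and the quality minimum removes pairs that map to several places.

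Counts were tested here with edgeR 4.0.16 in R 4.3.3 (TMM, filterByExpr; treatment tested with the dam as a block by the robust quasi-likelihood method; threshold 0.05 after Benjamini-Hochberg adjustment over 12276 genes, which hold 99.95% of the counts). limma 3.58.1 and DESeq2 1.42.0 served as alternatives. Standard errors are the log2 difference over the root of F. Pairs come from title stems and the series design; libraries of the same dam deviated together (correlations of 0.474, 0.621 and 0.413 across genes). Within each group the libraries differed by far more than counting noise. Differences within pairs use log2 CPM with a prior count of 2. The procedure was also run on simulated counts, which held no dam effect and the same relative spread between libraries for all genes. That run therefore does not show how the test does on these data.

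The members and lists were chosen with earlier results of these data known. Named genes are the members, Ins1 and Ins2, the 3 highest tested genes per kb of each related list, any that pass, and the 5 most correlated genes per member (mean count of at least 20). Col1a2, Crhr2, Crhbp, Pou2f3, Gnat3, Dclk1 and Rps9 were named after their values were seen. Mafa and G6pc2, also listed, are not analysed here. List symbols were matched to the files directly. RefSeq tables of GRCr8 served for promoters and gene names only. Alternatives were other normalizations, filters, tests, no block, and leaving out each pair.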

Additional observations from a re-analysis of the deposited data

How the results depend on the processing

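None of 48 alternative values for Ucn3, Gjd2 and Trpm5 passed a test, and 40 kept their direction. Of the 48, 18 were exact permutation tests relative to beta cell genes. Their smallest possible p is 0.25 with 3 pairs and 0.5 with 2, so they could not pass. Only the 30 fits could, and their smallest adjusted p was 0.646 (edgeR, Trpm5 without pair 1). Ucn3 turned to 0.085 (log2) with limma voom and to 0.35 with no replicate block, and Trpm5 relative to beta cell genes to -0.012 with Ins1 and Ins2 left out of those genes. With 1 pair left out, the fitted log2 difference ranged from -1.18 to 0.98 for Ucn3, -1.45 to 0.16 for Gjd2 and -1.39 to 0.55 for Trpm5, and the difference relative to beta cell genes from -0.17 to 0.67, -0.43 to -0.15 and -0.13 to 0.16. The number of genes called over the whole table was 2 in the reported fit and 2 with RLE factors, 4 with upper-quartile factors, 18 with no filter, 5 where the mean count had to reach 50, 106 with DESeq2, 1 with limma voom, 0 with no replicate block, and 18 to 55 without 1 pair; the cause was not tested. List medians with 1 pair left out ranged from -0.64 to 0.19 for the urocortin list, -0.064 to 0.022 for connexins and -0.216 to -0.018 for TRPM channels, whose median was -0.33 with no replicate block. Npy gave no value past the filter; with no filter its log2 difference was -0.07 (SE 1.68). Depth limits Trpm5 in pair 2 (15 counts in high glucose, 13 in control), and 3 pairs limit every comparison.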
